A study of Mus musculus with 18 samples.

Results

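The transcripts described here were abundant in untreated mouse immune cells and stood far lower 4 h after treatment with a cell wall extract. They comprise 68 genes of the 18193 for which the arrays carry a probe set assigned to a single gene. A gene was a member if its brightest probe set had a mean signal of 300 or more at 0 h and a mean of log2(signal + 16) at 4 h that was lower than at 0 h by 2 or more. Of 7912 genes past the signal limit, 81 met both limits, and 13 of these were set aside by name. The mean 4 h against 0 h difference and the 0 h level therefore chose the members and are given as descriptions, with no test.

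The study measured total RNA of mouse immune cells on 18 Affymetrix arrays, 6 from untreated time zero cells, 6 taken 1 h after treatment and 6 taken 4 h after it. The design text states that knockout mice received the extract, while the labels name no genotype, strain, age, deleted gene or cell type, and do not say whether animals were pooled. The labels do not say whether the 6 arrays of a time represent different animals, so p-values capture the scatter among these samples alone, part of which may be technical. Codes in the sample titles form 3 ranges, 12 to 22, 32 to 37 and 44 to 54. Every range has 2 arrays per time, and its meaning is not given in the sources used here.

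TLR2 and NOD2, both named in the series title, are innate receptors that recognise bacterial lipoproteins and fragments of peptidoglycan, and the kinase RICK relays the NOD2 signal. Stimulated macrophages switch on cytokine genes within the first hour, and a broad later programme includes a decline of many transcripts of the resting cell. A transcript can decline only as fast as its existing copies decay, so stable messages respond late even when their synthesis stops. Among the gene classes known to be quickly reset by growth and inflammatory signals are alpha-arrestins such as Arrdc3 and Txnip, sestrins, and other targets of FOXO transcription factors.

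Each array was scaled by the depositors to the same overall brightness, with a trimmed mean of 500 (2nd to 98th percentile, as the files show), and its median signal was 86.2 to 108.1 before 4 h and 74.7 to 87.5 at 4 h. Over all 11702 genes tested the median difference was -0.02 at 1 h and -0.19 at 4 h, against which the values below can be read. The 8 macrophage markers tested averaged 13.60 to 14.28 on the log2 scale on every array, with medians of 14.07, 14.06 and 13.94 at the 3 times. Of 6 T cell markers on the array, 5 were under the array's median on all 18 arrays. In bulk RNA, fewer cells of a type and less RNA per cell cannot be told apart.

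Promoter windows of 4 members are shown here: Arrdc3 and Gcnt1 because they had the largest differences among the members at 4 h, and Txnip and Sesn1 because they are known FOXO targets. Each window runs from 250 bases before to 50 bases after a RefSeq transcript start (GRCm38.p6), written 5′ to 3′ on the gene's strand. Capitals mark a match to GTAAACA (a FOXO motif) or GAGGAAGT (a PU.1 motif) on either strand. The windows are chr13:80883134-80883433 (+ strand), chr19:17356618-17356917 (- strand), chr3:96557707-96558006 (+ strand) and chr10:41810324-41810623 (+ strand), in the order printed. RefSeq gives 1 window for Txnip, 2 for Sesn1 and 3 each for Gcnt1 and Arrdc3. The Gcnt1 and Sesn1 windows printed were chosen because they hold a match; their other windows hold none.
Arrdc3: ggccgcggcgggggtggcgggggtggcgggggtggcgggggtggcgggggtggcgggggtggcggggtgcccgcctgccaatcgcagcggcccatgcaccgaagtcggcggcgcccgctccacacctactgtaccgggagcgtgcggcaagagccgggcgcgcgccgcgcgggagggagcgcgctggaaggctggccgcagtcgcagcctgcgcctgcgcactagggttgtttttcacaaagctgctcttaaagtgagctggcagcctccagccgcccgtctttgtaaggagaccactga
Gcnt1: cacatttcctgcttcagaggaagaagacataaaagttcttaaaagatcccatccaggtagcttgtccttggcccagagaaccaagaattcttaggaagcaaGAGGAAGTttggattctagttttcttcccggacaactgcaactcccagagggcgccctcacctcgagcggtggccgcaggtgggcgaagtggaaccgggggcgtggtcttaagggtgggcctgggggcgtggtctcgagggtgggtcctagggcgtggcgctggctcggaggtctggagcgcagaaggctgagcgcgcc
Txnip: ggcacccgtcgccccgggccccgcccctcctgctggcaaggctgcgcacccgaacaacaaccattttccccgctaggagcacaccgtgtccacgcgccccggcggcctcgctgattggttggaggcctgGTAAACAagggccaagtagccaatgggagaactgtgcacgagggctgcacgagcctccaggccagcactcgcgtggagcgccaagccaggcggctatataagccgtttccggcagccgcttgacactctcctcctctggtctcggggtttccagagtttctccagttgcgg
Sesn1: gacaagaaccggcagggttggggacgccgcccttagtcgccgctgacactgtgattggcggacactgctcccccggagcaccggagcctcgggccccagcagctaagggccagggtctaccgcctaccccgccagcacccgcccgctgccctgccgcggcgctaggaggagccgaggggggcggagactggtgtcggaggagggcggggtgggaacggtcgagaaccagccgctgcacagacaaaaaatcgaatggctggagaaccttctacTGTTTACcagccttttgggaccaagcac

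The Txnip window held GTAAACA with its first base at position -121 from the transcript start, and the Sesn1 window held the same motif on the opposite strand at position 23. The Gcnt1 window held GAGGAAGT at position -149, and the 3 Arrdc3 windows held neither. RefSeq windows were matched for 57 of the 68 members, in 86 windows. GTAAACA occurred in the windows of 4 of the 57 genes (Hgf, Sesn1, Txnip and Ypel3), or 7.02%, and in those of 4.05% of all genes with a window. GAGGAAGT occurred in 5 (Fam214a, Gcnt1, Havcr2, Rasgrp3 and Slco2b1), or 8.77%, against 3.69% of all genes. The E-box CACGTG was found in 5 (Arhgap45, Cdk20, Fam214a, Mxd4 and Tnrc6b), or 8.77%, against 8.09%, and the NF-kB motif GGGANTTCC in 2 (Paqr7 and Tifab), or 3.51%, against 1.92%. All 4 motifs were searched on both strands; CACGTG reads the same on both. Member genes had 86 windows for 57 genes, while all genes had 32851 for 27025, so the members had more windows per gene. Per window, the shares were 4.65%, 6.98%, 9.30% and 2.33% in the members and 3.65%, 3.20%, 7.15% and 1.68% over all windows, in the same order. These matches describe letters in the windows; no binding was measured.

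Among the members, the largest difference at 4 h was that of Arrdc3, an adaptor that brings ubiquitin ligases to membrane receptors. Its signal was 2439.8 to 6770.1 (median 3289) on the 6 arrays at 0 h, 1515 to 3521 (median 1883) at 1 h and 196 to 292 (median 260.0) at 4 h. All 4 h arrays lay far below both earlier times, while the 0 h and 1 h arrays overlapped. The mean log2 difference at 4 h was -3.74 ± 0.23 (SE of the limma fit), or 13.3-fold lower. Gcnt1, which adds the core branch to mucin-type O-glycans and so helps build selectin ligands, was lost to a similar degree. It read 2319 to 4390.2 (median 3760.4) at 0 h, 2243 to 4135 (median 2926) at 1 h and 154 to 534 (median 301) at 4 h, a difference of -3.50 ± 0.25 at 4 h with no overlap. Cytip, a binding partner of cytohesins that limits leukocyte adhesion, was among the brightest members and uneven between arrays. Its signal spanned 2494 to 23345 (median 5328) at 0 h, 2142 to 20143 (median 4666) at 1 h and 258 to 2429 (median 449) at 4 h. The arrays of codes 32 to 37 were the highest at each time, and the lowest array at 1 h read below the highest at 4 h.

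Only 3 further members had differences of -3 or below: Klhl6 (-3.23), Sesn1 (-3.22) and Hpgd (-3.08). Another 16 lay between -3 and -2.5, and 46 between -2.5 and -2. Mean signals at 0 h ran from 320.5 (Fbxo31) to 14251 (Txnip), with a median over members of 1405. The median of the members' mean signals was 1220.0 at 1 h and 214 at 4 h. Mean signals at 4 h ran from 54.05 (Sbk1) to 2459 (Txnip), and 28 members were under their array's median signal on at least 1 of the 6 arrays, none on all 6. Single 4 h arrays read as low as 6.10 (Fbxo31) and 7.66 (Mbd4), and no test of detection was made. Because 16 is added before the logarithm, differences of dim genes are understated. The 4 h arrays lay wholly below the 0 h arrays for 64 members, the exceptions being Hpgd, Rasgrp3, Pde3b and Slco2b1. This count follows from the choice of members and is a description, and the share over all genes was not computed. Among all genes tested, limma called 23.9% lower at 4 h than at 0 h, the contrast that chose the members.

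Members just inside the limit were Havcr2 (-2.03), Rab11fip5 (-2.02) and Tnrc6b (-2.01). The nearest genes outside, AU020206 (-1.9998), Traf3ip3 (-1.9997) and Cx3cr1 (-1.9985), missed it narrowly, so the limit cuts through a continuous run of values. By brightness, Fbxo31 (320.5), Sbk1 (331.9) and Zfand4 (354) were just inside at 0 h, and Gpr34 (299.7), Zfp688 (291) and Tmem273 (291) just outside.

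**Figure D1:**
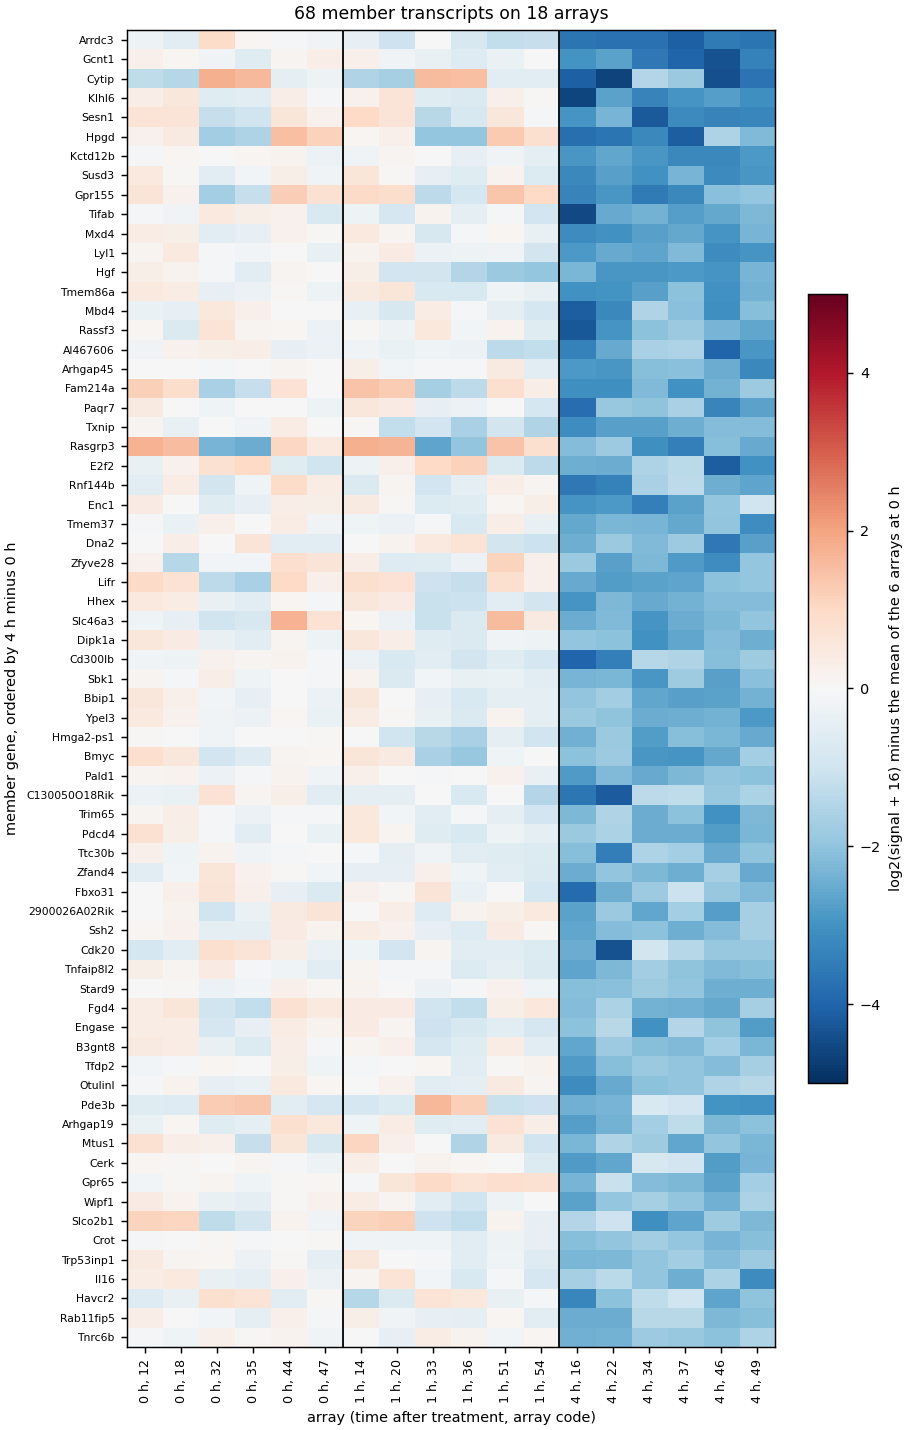
Heat map of the 68 members (one line per gene, ordered by the 4 h minus 0 h difference) on the 18 arrays (columns, grouped by time and marked with the array code). Colour gives log2(signal + 16) minus the gene's mean over the 6 arrays at 0 h. The 4 h block is the lowest for all 68 genes, and Cytip, Rasgrp3 and Pde3b show steps between code ranges within a time.

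At 1 h most members differed little from 0 h in their means. limma (moderated test, Benjamini-Hochberg adjustment over all 25804 probe sets tested, threshold 0.05) called 0 of 68 members lower and 0 higher than at 0 h, which does not show that their levels were the same. Over all genes tested it called 0.0342% lower and 0.615% higher, so calls at 1 h were rare in general. At an unadjusted p under 0.05, 5 members were lower (Hgf, Txnip, Hmga2-ps1, Arrdc3 and Crot) and 1 was higher (Gpr65). The share of all genes at this looser limit was not computed, so these names are a description only. This contrast shares its 0 h arrays with the selection rule and is not independent of the choice of members. The members' differences had a median of -0.17, compared with -0.03 over the 7912 genes with a mean signal of 300 or more at 0 h. On leaving out each array in turn, the members' median ran from -0.08 (without the 1 h array of code 36) to -0.25 (without the 1 h array of code 14). It was -0.09 without the 0 h array of code 12. Of the 68, 57 (83.8%) were below 0 and 11 above, 45 (66.2%) lay within 0.25 of 0 and 60 within 0.5. Among the 7912 bright genes 58.9% were below 0 and 87.2% lay within 0.25 of 0. A difference of -0.5 or below was found in 7 members, or 10.3%, and in 0.683% of the bright genes.

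Hgf, the growth factor ligand of the receptor Met, had the lowest difference at 1 h. It read 322 to 573 (median 486) at 0 h, 109 to 571 (median 196) at 1 h and 45.7 to 83.3 (median 49.4) at 4 h. On 5 of the 6 arrays at 1 h the signal was below every 0 h array, and on the remaining one (code 14) it was at the high end of the 0 h range. The difference of -1.15 ± 0.29 missed the threshold (limma adjusted p = 0.0934). Txnip, which binds thioredoxin and restrains glucose uptake, was the brightest member. Its readings were 10821 to 18064 (median 14176) at 0 h, 4615 to 14813 (median 6655) at 1 h and 1629 to 3137 (median 2357) at 4 h. Here too 5 of 6 arrays at 1 h lay below all 0 h arrays and the array of code 14 did not. The difference was -1.02 ± 0.24 (limma adjusted p = 0.0587), and a further Txnip probe set gave -1.43 (limma adjusted p = 0.0800).

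Hmga2-ps1, a pseudogene related to the chromatin protein gene Hmga2, came next at -0.91 ± 0.22 (limma adjusted p = 0.0727). Its signal ran over 571 to 670.0 (median 659.7) at 0 h and 198 to 639 (median 315) at 1 h, with the array of code 14 again the highest at 1 h. The probe set may also read related copies of the gene. When that single 1 h array was left out, all 3 genes passed the limma threshold: Hgf at -1.43 (adjusted p = 7.85e-04), Txnip at -1.24 (adjusted p = 9.94e-04) and Hmga2-ps1 at -1.09 (adjusted p = 0.00369). Fitting the code range as a block brought Hgf (limma adjusted p = 0.0376) and Hmga2-ps1 (limma adjusted p = 0.0298) under the threshold, with Txnip at 0.0516. Thus the count of members called lower at 1 h was 0 in the main fit and 2 with the code range as a block. It was 3 without the 1 h array of code 14.

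Arrdc3 followed at -0.78 ± 0.23 (limma adjusted p = 0.203). Cd300lb, an activating immunoglobulin-like receptor of myeloid cells, read 7910.1 to 10939.5 (median 9620.4) at 0 h, 4951 to 7604 (median 5889) at 1 h and 582 to 3530.2 (median 2431) at 4 h. No 1 h array reached the lowest 0 h array, although its difference of -0.67 ± 0.35 did not pass (limma adjusted p = 0.823). The 4 h arrays, which share the estimate of spread, were the most uneven in relative terms. Crot, the peroxisomal carnitine octanoyltransferase, was the other member without overlap between 0 h and 1 h and is named here after its values were seen. Its readings were tight, 1678 to 1888 (median 1787) at 0 h and 1210.0 to 1576 (median 1518) at 1 h, and the difference was -0.30 ± 0.11 (limma adjusted p = 0.475). Over all genes tested, 0.265% had all 1 h arrays below all 0 h arrays.

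Gpr65, a proton-sensing receptor that raises cyclic AMP, was the member that went furthest in the opposite direction before its loss. It read 2483 to 3156 (median 2970.1) at 0 h, 2635 to 5509 (median 4723) at 1 h and 433 to 1290.0 (median 599.97) at 4 h. On 5 of the 6 arrays at 1 h it exceeded every 0 h array, the exception being the array of code 14. The difference was 0.62 ± 0.22 and did not pass (limma adjusted p = 0.386). The next highest values at 1 h, Gpr155 (0.33 ± 0.54), Rasgrp3 (0.19 ± 0.86), Fam214a (0.14 ± 0.56) and 2900026A02Rik (0.10 ± 0.28), did not pass the limma test either.

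**Figure D2:**
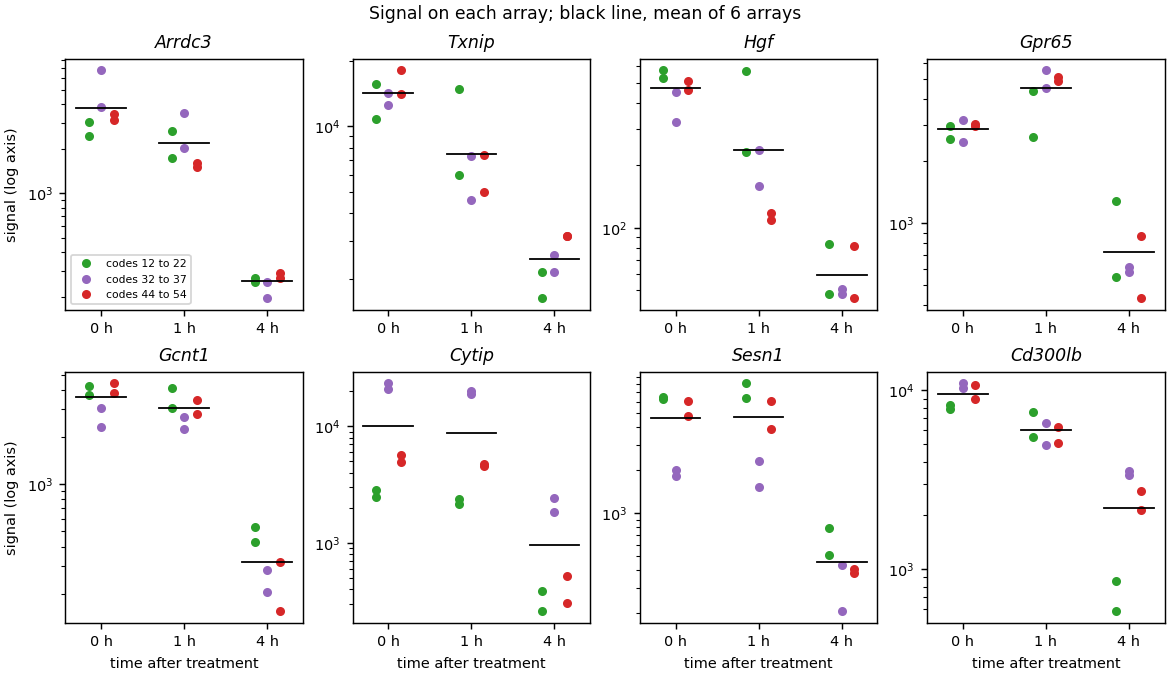
Signal (log axis) of 8 members on each of the 18 arrays at 0 h, 1 h and 4 h, coloured by code range, with the mean of 6 arrays as a black line. Txnip and Hgf show 5 of 6 arrays at 1 h below all 0 h arrays, Gpr65 shows 5 of 6 above, and Cytip separates by code range at every time.

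Most of the loss lay between 1 h and 4 h. Against 1 h, limma called 68 of 68 members lower at 4 h, where 18.9% of all genes tested were called lower. The 4 h arrays are shared with the selection rule, so this count is a description. The differences ran from -3.28 (Gcnt1) to -1.43 (Hmga2-ps1), and the highest adjusted p in the limma fit was 0.0279 (Rasgrp3). The median was -2.14, compared with -0.15 over the bright genes. For 59 members every 4 h array lay below every 1 h array, as it did for 8.34% of all genes tested. The 9 with overlap were Cytip, Hpgd, Rasgrp3, Bmyc, C130050O18Rik, Cdk20, Pde3b, Slco2b1 and Havcr2. Gpr65 illustrates the timing: its difference was -2.05 from 0 h but -2.67 from 1 h. For Hgf, in contrast, the difference from 1 h to 4 h was -1.56, beside -1.15 from 0 h to 1 h.

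**Figure D3:**
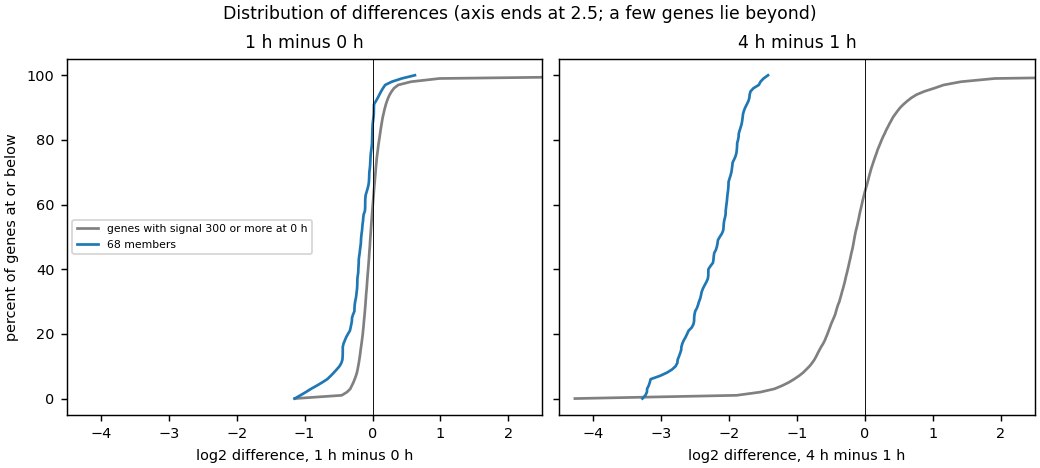
Cumulative percent of genes (vertical axis) at or below a given log2 difference (horizontal axis) for 1 h minus 0 h and 4 h minus 1 h, for the 68 members and for the 7912 genes with a mean signal of 300 or more at 0 h. At 1 h the members' curve lies mostly to the left, with medians of -0.17 and -0.03 and 5th percentiles of -0.74 and -0.28. From 1 h to 4 h the curves lie far apart, with medians of -2.14 and -0.15.

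By known function the members fall into 8 groups, drawn up after the members were known. The group of stress sensing, growth restraint and cell cycle holds 12 genes, with a median difference of -0.16 at 1 h and -2.47 at 4 h. Besides Arrdc3 and Txnip it includes Sesn1, a p53 target that restrains the mTORC1 growth kinase. Sesn1 read 1819.9 to 6541 (median 5447) at 0 h, 1523 to 8081 (median 4977) at 1 h and 205 to 790.2 (median 418) at 4 h, with a difference of -0.01 ± 0.43 at 1 h. Its 0 h and 1 h arrays overlapped and its 4 h arrays lay below both. Trp53inp1 (-2.03 at 4 h), a p53-induced regulator of autophagy, Ypel3 (-2.33), a growth-suppressing p53 target, Pdcd4 (-2.24), an inhibitor of translation initiation, and Rassf3 (-2.67), a Ras-association family member, also belong here. Cell cycle and DNA genes complete the group: the S-phase activator E2f2 (-2.495) and the E2F dimer partner Tfdp2 (-2.10), the kinase Cdk20 (-2.17), the replication helicase-nuclease Dna2 (-2.44) and the mismatch glycosylase Mbd4 (-2.68).

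Surface receptors, ligands and transporters form the largest group, 13 genes with medians of -0.14 at 1 h and -2.44 at 4 h. It spans both extremes of the 1 h values, Hgf and Gpr65. Receptors in it are Cd300lb, Lifr (-2.44 at 4 h), a receptor subunit for leukaemia inhibitory factor, Havcr2 (-2.03), which encodes the inhibitory receptor TIM-3, Paqr7 (-2.55), a membrane progestin receptor, Gpr155 (-2.84), a lysosomal membrane protein, and Susd3 (-2.90), a sushi-domain membrane protein. Il16 (-2.03) encodes a chemoattractant cytokine. The transporters Slc46a3 (-2.39) and Slco2b1 (-2.04) carry solutes across the lysosomal and plasma membranes. Kctd12b (-2.95) is related to receptor-associated KCTD proteins, and Tmem37 (-2.46) resembles calcium channel gamma subunits. Kctd12b had one of the tightest profiles, with mean signals of 915 ± 106, 805 ± 135 and 105 ± 20.2 (± SD, n = 6 each) at the 3 successive times.

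The cytoskeleton, adhesion and small GTPase group has 12 genes and the median nearest 0 at 1 h, -0.05, with -2.17 at 4 h. None of its members was at -0.25 or below at 1 h. Apart from Cytip it contains the GTPase-activating proteins Arhgap45 (-2.61 at 4 h) and Arhgap19 (-2.07), the Cdc42 exchange factor Fgd4 (-2.13) and the diacylglycerol-responsive Ras exchange factor Rasgrp3 (-2.51). Actin regulators are Ssh2 (-2.19), a cofilin phosphatase, Wipf1 (-2.04), which stabilises the Wiskott-Aldrich protein, and the kelch protein Enc1 (-2.48). Mtus1 (-2.06) binds microtubules, Stard9 (-2.15) is a kinesin, Rab11fip5 (-2.02) serves recycling endosomes and Pald1 (-2.30) is a phosphatase-like protein. Arhgap45 read 1714 ± 90.3 at 0 h and 1738 ± 422 at 1 h, and stood at 278 ± 92.5 (± SD, n = 6 each) at the last time.

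Signalling brakes and the ubiquitin system contribute 8 genes, with medians of -0.16 at 1 h and -2.35 at 4 h. Klhl6, a cullin adaptor known from B cells, read 991 to 2253 (median 1675) at 0 h, 911 to 2389 (median 1684) at 1 h and 48.3 to 222 (median 176) at 4 h, with overlap of the first 2 times and none with the last. Tifab (-2.82 at 4 h) inhibits TRAF6 signalling, and Tnfaip8l2 (-2.16), also called TIPE2, restrains Toll-like and T cell receptor responses. Rnf144b (-2.49) and Trim65 (-2.25) are ubiquitin ligases and Fbxo31 (-2.21) is a substrate receptor of one. Otulinl (-2.09) is a relative of the deubiquitinase Otulin, and Zfyve28 (-2.44) acts in endosomal receptor traffic.

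The 8 enzymes of lipid, nucleotide and glycan metabolism had medians of -0.22 at 1 h and -2.12 at 4 h. Hpgd, which inactivates prostaglandins, had 1437 to 13873 (median 6122) at 0 h, 1246 to 12030.3 (median 5439) at 1 h and 267 to 1654 (median 439.8) at 4 h. Its wide ranges overlapped at all 3 times. B3gnt8 (-2.12 at 4 h) extends poly-N-acetyllactosamine chains and Engase (-2.12) trims free N-glycans in the cytosol. Lipid enzymes are Tmem86a (-2.69), which cleaves lysoplasmalogens, the ceramide kinase Cerk (-2.05) and Crot (-2.04). Pde3b (-2.08) degrades cyclic AMP.

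Transcription and RNA silencing is represented by 5 genes, with medians of -0.18 at 1 h and -2.40 at 4 h. They are the blood cell transcription factors Lyl1 (-2.71 at 4 h) and Hhex (-2.40), Mxd4 (-2.79), which competes with Myc for Max, the Myc relative Bmyc (-2.33) and Tnrc6b (-2.01), a scaffold of microRNA silencing complexes. The cilium genes are Bbip1 (-2.34), a BBSome subunit, and Ttc30b (-2.23), an intraflagellar transport protein with close relatives in the mouse genome that the probe set may also read. Their differences at 1 h were -0.26 ± 0.23 and -0.44 ± 0.24. The other 8 members are less characterised: AI467606 (-2.66), Fam214a (-2.59), Dipk1a (-2.37), the kinase Sbk1 (-2.35), Hmga2-ps1 (-2.33), C130050O18Rik (-2.30), Zfand4 (-2.22) and 2900026A02Rik (-2.21). Their median was -0.33 at 1 h, the lowest of the groups above 2 genes, and -2.34 at 4 h. AI467606 (-0.59 ± 0.36) and C130050O18Rik (-0.53 ± 0.45) were, with Hmga2-ps1, the ones at -0.5 or below at 1 h, and neither of the former passed the limma test.

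**Figure D4:**
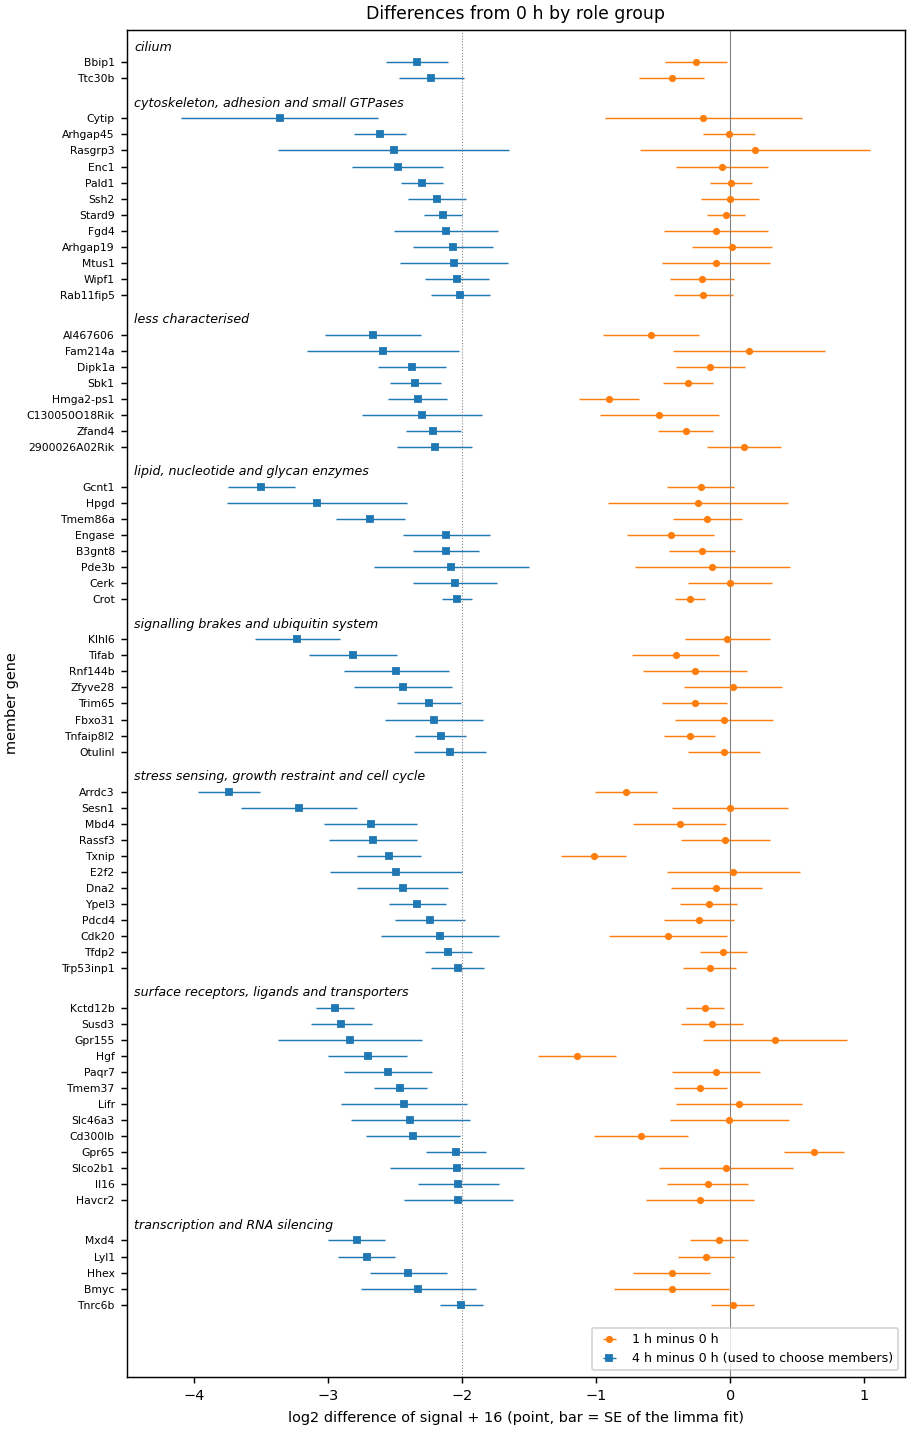
Mean log2 difference from 0 h with the standard error of the limma fit for each member, at 1 h (circles) and at 4 h (squares, the contrast used to choose members), in 8 functional groups. Squares reach from -3.74 to the dotted limit at -2; circles range from -1.15 (Hgf) to 0.62 (Gpr65), with 60 of 68 within 0.5 of 0.

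Relatives of the leading members were examined in gene lists named by pathway or family. The members on a list are lower by selection, so counts and medians of the lists are given without them. Among the other 12 alpha-arrestins and NEDD4-family ligases tested, 3 were called lower at 4 h and 1 higher by limma, with a median of -0.24. At 4 h, over all genes, 23.9% were called lower and 11.5% higher. Next to Arrdc3 and Txnip, the other alpha-arrestins had smaller differences: Arrdc2 -0.69 (limma adjusted p = 0.00962), Arrdc1 -0.24 (limma adjusted p = 0.184) and Arrdc4, which like Txnip is known to respond to glucose, -0.00 (limma adjusted p = 0.992). Of 22 enzymes of mucin-type O-glycan synthesis besides Gcnt1, 7 were lower and 2 higher, with a median of -0.16. Named after its values were seen, the sialyltransferase St3gal1, which competes with Gcnt1 for the same glycan, differed in the opposite direction from Gcnt1, by 2.42 (limma adjusted p = 8.38e-06). Among 8 cytohesins and partners besides Cytip, 2 were lower, with Cyth1, the best known Cytip partner, at -1.09 (limma adjusted p = 0.00176).

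Among FOXO factors and targets other than the members Sesn1 and Txnip, 14 of the 24 genes tested were called lower and 3 higher at 4 h, with a median of -0.78. Of the factors themselves, Foxo3 was at -1.43 (limma adjusted p = 5.33e-05), Foxo4 at -1.497 (limma adjusted p = 1.71e-04) and Foxo1 at -0.54 (limma adjusted p = 0.00175). The sestrin Sesn3 was at -1.29 (limma adjusted p = 2.97e-04). The 3 called higher were Gadd45a (2.20), Irs2 (1.33) and Rictor (0.61). The remaining genes of the list were not called at 4 h, among them Bcl2l11 (0.02) and Btg1 (-0.21). At 1 h a single gene of the list was called, Gadd45a, which was higher by 2.36 (limma adjusted p = 0.0103). Whether FOXO factors had a part in the members' loss was not tested.

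Some of the other family lists that hold members were examined in the same way, again without them. Of 22 Kelch-like genes 10 were lower and 1 higher. F-box genes gave 16 and 3 of 48, TRIM genes 13 and 8 of 36, Gpr receptors 7 and 4 of 32, and phosphodiesterases 1 and 3 of 15. Solute carriers gave 51 and 32 of 215 and Tmem genes 48 and 14 of 152. DNA repair genes, a list without members and with Dna2 and Mbd4 standing outside it, had 18 of 35 lower, with a median of -0.56. Interferon-inducible Ifi genes had 9 of 23 higher and a median of 0.42. These were the lowest and the highest median of the lists without members. The others lay between, such as circadian clock genes at -0.21 and glucocorticoid-responsive genes at 0.38.

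Levels of many members differed between the 3 ranges of array codes. The selection did not compare ranges, since each range holds 2 arrays of every time. Its signal limit applies to the mean over ranges, though, so a gene high in some ranges only can pass it. At 0 h, for example, Rasgrp3 averaged 221 and Lifr 195 in codes 32 to 37, below the limit of 300. The members' share below is therefore a description. The F-test in limma, with time in the model, called 33 of 68 members, or 48.5%. The same test called 34.9% of all genes tested and 39.6% of those with a mean signal of 300 or more at 0 h. Of the 33, 21 had their lowest level in codes 32 to 37, 6 in codes 12 to 22 and 6 in codes 44 to 54. The same split over all genes called is not given here, so it cannot be read as particular to the members. Cytip read 2494 and 2845 at 0 h on the arrays of codes 12 to 22, 23345 and 21106 in codes 32 to 37, and 5701 and 4954 in codes 44 to 54 (limma F-test over ranges, adjusted p = 6.93e-09). Pde3b was also highest in codes 32 to 37, 1.88 higher on the log2 scale in codes 32 to 37 than in codes 12 to 22 (limma adjusted p = 9.66e-09). Rasgrp3 was lowest in codes 32 to 37. It read 3595 and 4171 at 0 h in codes 12 to 22, 1747 and 2576 in codes 44 to 54, and 235 and 207 in codes 32 to 37 (limma adjusted p = 5.11e-05). Slco2b1 (limma adjusted p = 5.41e-07), E2f2 (limma adjusted p = 4.98e-06) and Hpgd (limma adjusted p = 2.99e-05) also stood out. Marker levels moved with the ranges as well. The mean of the 6 stromal markers was 7.48 to 8.16 in codes 12 to 22, 9.37 to 10.09 in codes 32 to 37 and 11.17 to 11.54 in codes 44 to 54. That of the 7 neutrophil markers on the array was 7.22 to 7.73, 6.56 to 7.28 and 5.51 to 6.51. Their part in the members' differences between ranges was not tested.

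The members stood lower at 4 h in every range, and by the median the difference was smallest in codes 32 to 37. The members' median 4 h difference was -2.67 in codes 12 to 22, -2.02 in codes 32 to 37 and -2.42 in codes 44 to 54, and 64 members were at -1 or below in all 3. At 1 h the medians were -0.03, -0.21 and -0.22 in the same order. A difference of -2 or below at 4 h was reached by 63, 36 and 59 members in the 3 ranges and by 29 in all 3. The ranges make up the mean difference that chose the members, so these 4 h medians and counts are descriptions. Values per range over all genes are not given here. The limma interaction test, which asks whether the 4 h difference itself varied between ranges, called 5 of 68 members, or 7.35%, beside 1.13% of all genes tested and 1.25% of the bright genes. The members were picked for a large mean of this same difference, so their share cannot be read against that of unselected genes. In these 5 the loss was smallest in codes 32 to 37. For Rasgrp3 it was -3.61, -0.82 and -3.10 in codes 12 to 22, 32 to 37 and 44 to 54, where the middle range started from a signal near 221. Fam214a gave -4.09, -1.23 and -2.45, Lifr -3.51, -1.18 and -2.62, Cd300lb -3.48, -1.62 and -2.01, and Cerk -2.79, -0.96 and -2.42. Fam214a and Lifr also started low in codes 32 to 37, from mean signals of 272 and 195. Cd300lb and Cerk started there from 10597 and 2864. How far a low start limited the difference was not tested. The count depended on the processing: it was 3 with a pseudocount of 1 or with quantile normalization and 0 with no filter on dim probe sets.

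**Figure D5:**
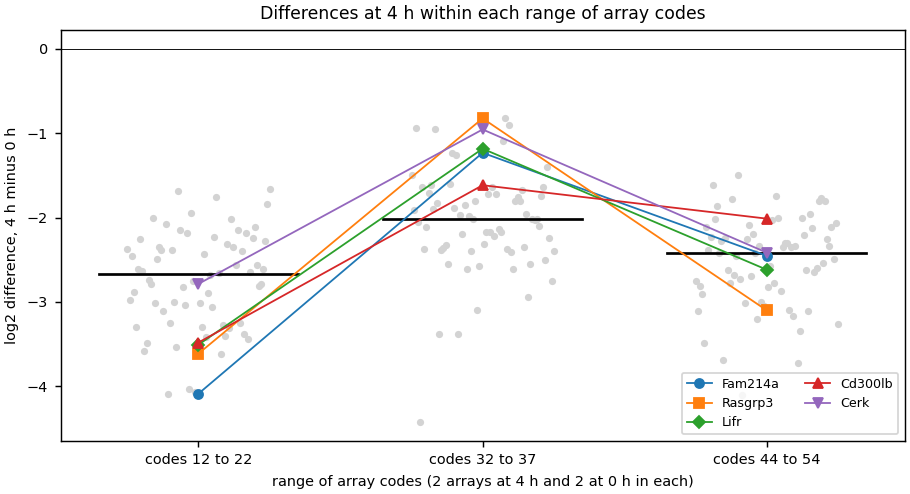
Log2 difference, 4 h minus 0 h, of each member (grey points) within each range of array codes, with the median over members as a black bar and the 5 members whose difference varied between ranges as coloured lines. Medians are -2.67, -2.02 and -2.42, and all 5 coloured lines peak in codes 32 to 37.

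Other probe sets give a further reading of the values at 4 h. They read the same genes on the same arrays, in the contrast that chose the members, so their counts are descriptions. The members have 62 further single-gene probe sets, of which 54, for 37 members, passed the filter. At 4 h 53 of these 54 were below 0, 40 were at -1 or below and 19 at -2 or below, with a median of -1.67. Over all genes tested 65.5% were below 0 at 4 h, and the shares at -1 and -2 are not given here. Cytip's others gave -2.16 and -3.71 and Gcnt1's gave -2.10, while those of Bbip1 gave 0.40 and -0.18 beside -2.34 for the chosen one, so its loss rests on a single probe set. Some other members also had a probe set with a much smaller difference. Examples are Tfdp2 (-0.66 beside -2.10), Lifr (-0.65 beside -2.44) and Susd3 (-0.77 beside -2.90, in a probe set with a mean of 115 at 0 h). In all, 29 members have only 1 probe set, among them Arrdc3, Klhl6 and Gpr65. For 8 members (Sesn1, Hpgd, 2900026A02Rik, Cdk20, Arhgap19, Mtus1, Slco2b1 and Rab11fip5) the chosen probe set is of a type that can read transcripts of several genes.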

How the data were processed

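Each of the 18 samples, total RNA from mouse immune cells, was measured on 1 Affymetrix array. The authors deposited 1 intensity per probe set, a linear scanner signal summarised and scaled with MAS5 in GCOS, per the submitters' processing notes. Tool versions are not stated there. The table holds 45101 probe sets, of which 64 are controls. A single gene symbol belonged to 34945, of which 34741 matched RefSeq, while 932 carried several symbols and 9160 none; only single-symbol probe sets were named.

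Deposited intensities were used as log2(signal + 16) without further normalization. Probe sets above their array's median on at least 4 of 18 arrays were kept (25804). limma 3.58.1 in R 4.3.3 fitted a mean per time to all 18 arrays, and p-values were adjusted over all kept probe sets. The fit was tested on simulated data. No 2 arrays held identical values. The number of arrays, 6 per time, limits the precision.

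Members and gene lists were chosen with earlier results of these data known, and 1 list is not reported here. Genes were named by rule: the 3 markers, the 12 lowest at 4 h, extremes at 1 h, the 6 brightest, neighbours of the limit, those most dependent on code range, and up to 4 per functional group; every member is listed once. Alternatives were other pseudocounts (1 and 64), filters, quantile or median scaling, code range as a block, the mean of a gene's probe sets, a fit on 12 arrays, and leaving out each array.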

Additional observations from a re-analysis of the deposited data

Results flagged for a closer look

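Among 39 sets of 6 arrays examined (the 12 members with the largest difference at 4 h and the median over all members, at each time), 2 held a single array far from the others by Dixon's gap ratio at its 95% limit for 6 values. Chance alone gives about 1 in 20 such sets. Both were the 4 h array of code 16 (replicate 6 of that time). Klhl6 read 48.3 there, or 6.01 on the log2 scale, against 7.24 to 7.90 on the other 5 arrays (ratio 0.654). Tifab read 10.1, or 4.71, against 6.46 to 6.99 (ratio 0.769). Both genes were lower than at 0 h on the other 5 arrays as well.

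Differences at 4 h varied between ranges of array codes for 5 members by the limma interaction F-test: Rasgrp3 (adjusted p = 0.0169), Lifr (adjusted p = 0.0220), Fam214a (adjusted p = 0.0343), Cd300lb (adjusted p = 0.0479) and Cerk (adjusted p = 0.0480). In each, all 3 ranges were below 0 and codes 32 to 37 were the nearest to 0.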

How the results depend on the processing

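The count of members called lower at 1 h was 0 in the main fit to all arrays. It was 2 with a pseudocount of 64 and with the code range as a block, 1 with the stricter filter, with quantile normalization and with the mean of a gene's probe sets, and 0 to 3 on leaving out each array, the 3 arising without the 1 h array of code 14. The genes concerned were Hgf, Txnip and Hmga2-ps1. Among 1188 values of the 44 named genes at 1 h, 1178 kept their side of the threshold, 10 passed it (these 3 genes) and 0 reversed. Members called lower from 1 h to 4 h numbered 67 or 68 under each alternative run. Over all probe sets, 194 changed at 1 h, 339 with the block, 104 in the fit on 12 arrays and 108 to 418 on leaving out each array.

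The members' median from 1 h to 4 h, -2.14, was -1.89 with the mean of a gene's probe sets. From 0 h to 4 h the median of -2.34 was -2.08 with a pseudocount of 64 and -2.10 with arrays centred on their medians. The rule found 174 members at -1.5, 22 at -2.5, 39 with a pseudocount of 64 and 41 with centred arrays. Members whose 4 h difference varied by code range numbered 5, but 3 with a pseudocount of 1 or quantile normalization and 0 with no filter. The causes of these changes were not tested. No paired analysis was possible because the labels number no replicates across times. Signals of dim members at 4 h lie near the array median, which limits how exactly their loss is known.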
